A study of Mus musculus with 29 samples.

Results

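BAM2 is one of 5 subtypes into which the depositors divided the border-associated macrophages (BAM) of the mouse brain. Its members are the brain cells that the deposited annotation places in the parent class BAM and in the subtype BAM2. There were 470 such cells among 1453 BAM and 55268 brain cells, beside 548 BAM1, 240 BAM3, 139 BAM4 and 56 BAM5 cells.

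Border-associated macrophages are the resident macrophages of the meninges, the perivascular spaces and the choroid plexus. Textbook markers of the class are Mrc1, the mannose receptor CD206, and Pf4, a platelet-type chemokine. Macrophages of the brain borders are commonly divided by whether they carry Lyve1, a hyaluronan receptor, or MHC class II, the molecules that present peptides from outside the cell to CD4+ T cells. Microglia, the macrophages of the brain tissue itself, carry little class II in the healthy brain. Class II genes are switched on together by the coactivator CIITA, which acts through conserved promoter elements called the X and Y boxes.

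Cells came from C57BL/6J mice after transient middle cerebral artery occlusion, a model of ischaemic stroke, or after a sham operation. Each library pooled 4 to 5 hemispheres. Cells were dissociated with papain in the presence of Brilliant Blue G, actinomycin D (which blocks transcription) and AP-5, sorted as CD45high cells, microglia and endothelial cells, and profiled by Drop-seq, a droplet method for single-cell RNA. The young groups were male mice of 8 to 10 weeks, with 4 libraries each from sham mice at day 2, stroke mice at day 2 and stroke mice at day 14. From mice aged 17 to 20 months there were 2 sham libraries (1 male, 1 female) and 3 stroke libraries (1 male, 2 female) at day 2, with a single female stroke library at day 14. There was no sham group at day 14, so the 14-day interval and stroke cannot be told apart in comparisons with sham. The labels do not say which replicates came from separate experiments, so p-values measure the spread between libraries.

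Brain libraries held between 1143 and 5121 cells and between 819438 and 5855047 counts. BAM2 cells had a median of 601 counts, against 763 in BAM1, 314 in BAM3, 805 in BAM4 and 507 in BAM5. No BAM barcode was shared between libraries. In each young group the library with the lowest share of counts from ribosomal protein genes over all cells was picked. These were sham 1 at 4.92%, day 2 replicate 3 at 7.26% and day 14 replicate 3 at 6.42%. Every group has a lowest library, and sham 3 (7.17%) and sham 4 (6.79%), not picked, lay below day 2 replicate 3. In BAM2 the shares of the picked libraries, 10.4, 8.57 and 7.09%, were the lowest of each group too. Day 2 replicates 1 and 2 and day 14 replicate 4 lay close to sham 1 there, at 10.4 to 10.9%. The 3 picked libraries are called the libraries of low ribosomal share, which is a rank within each group and no common level. The BAM cells of the aged day 14 library also stood apart. Apoe, the apolipoprotein E gene, was at 205 CPM (counts per 1000000 counts of the summed cells) in its BAM2 cells and 1428 CPM in its other BAM, whereas BAM2 of the other 11 libraries with at least 10 cells of both lay between 19992 and 48744 CPM. Results that rest on these libraries are also given without them.

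The MHC class II genes are the group that most sets BAM2 levels apart, so the start of their promoters is shown first. For 5 of the 8 genes in the class II list a RefSeq promoter was matched. The stretches are the 150 bases that end just before the annotated RefSeq start, on the coding strand, build GRCm38.p6. Capitals mark the Y box letters TGATTGG and the X box letters (AGCAAC, then any base, then GATG), which were searched on both strands and do not overlap. H2-Aa encodes the alpha chain of the I-A molecule (chr17:34287824-34287973, minus strand), H2-Eb1 the beta chain of I-E (chr17:34305717-34305866, plus strand), and H2-DMb1 a chain of the peptide-loading chaperone H2-DM (chr17:34153041-34153190, plus strand).
H2-Aa: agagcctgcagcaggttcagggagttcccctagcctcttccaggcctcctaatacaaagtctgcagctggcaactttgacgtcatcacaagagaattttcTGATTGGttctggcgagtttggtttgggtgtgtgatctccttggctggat
H2-Eb1: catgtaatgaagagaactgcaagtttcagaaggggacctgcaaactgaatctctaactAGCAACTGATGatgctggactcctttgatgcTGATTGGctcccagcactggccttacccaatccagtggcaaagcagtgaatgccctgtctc
H2-DMb1: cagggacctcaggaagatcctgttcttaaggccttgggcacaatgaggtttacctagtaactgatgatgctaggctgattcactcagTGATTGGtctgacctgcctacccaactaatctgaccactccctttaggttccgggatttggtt

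The Y box letters began at base -50 in H2-Aa, -61 in H2-Eb1 and -63 in H2-DMb1, counted back from the start. They also lay in the H2-DMb2 promoter and not in that of H2-DMa, whereas 7.82% of all 32851 promoters in the RefSeq table held them. The X box letters lay in the H2-Eb1 promoter at base -92 and in 0.0700% of all promoters. Of the 24 genes that differed most in level between BAM2 and the other BAM, described next, 17 had a matched promoter. Only 3 of these held the Y box letters, and they are H2-Aa, H2-Eb1 and H2-DMb1, already shown above. No named gene outside class II with a matched promoter held them.

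BAM2 carried the class markers at low levels. Over all brain libraries pooled, Mrc1 was at 1002 CPM in BAM2, against 5222 in BAM1, 4015 in BAM3, 2372 in BAM4 and 2544 in BAM5. Pf4 was at 831 CPM in BAM2 and between 3046 and 6115 CPM in the other 4 subtypes. Both were lowest in BAM2 among the BAM subtypes. Outside BAM, the highest pooled level of Mrc1 was 52.7 CPM in dendritic cells (DC) and that of Pf4 279 CPM in monocyte-derived cells (MdC). By library the gap was narrower. In young sham DC held 182 to 478 CPM of Mrc1, against 485 to 2073 CPM in BAM2. At day 2 MdC held 127 to 582 CPM of Pf4 against 756 to 2053 CPM in BAM2, and in sham 4 Pf4 was no higher in BAM2 (241 CPM) than in MdC (254 CPM).

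By cell, after rounding counts to whole numbers, 54.0% of BAM2 cells (254 of 470) held a count of Mrc1 or Pf4. The share was 96.5% in BAM1, 11.1% in MdC, 4.46% in DC and 2.12% in microglia, at median depths of 638, 789, 1069, 852 and 572 counts for BAM2, BAM1, MdC, DC and microglia. Thinned to 300 counts per cell, with 76 shallower BAM2 cells left out, the share was 35.5% in BAM2 and 88.9% in BAM1. A count of H2-Aa, H2-Ab1, H2-Eb1 or Cd74 was present in 98.7% of BAM2 cells, 97.4% of DC, 45.3% of MdC and 7.14% of microglia. Among the other BAM it was present in 27.4% of BAM1, 20.0% of BAM3, 31.7% of BAM4 and 41.1% of BAM5 cells. All 254 BAM2 cells with Mrc1 or Pf4 also held a class II count. Cells with and without Mrc1 or Pf4 held like class II levels: H2-Aa was at 10305 CPM in those with and 11332 CPM in those without, and Ccr2 was at 1300 and 1820 CPM. The cells with a count were also deeper, at a mean of 914 against 655 counts.

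Markers of other cell types were measured in BAM2 as well. Of 8 dendritic markers 7 were detected, with a summed level of 177 CPM against 1628 CPM in DC. Zbtb46, a transcription factor of conventional dendritic cells, was at 0, and Flt3, their growth factor receptor, was at 34.5 CPM against 192 CPM in DC. All 9 monocyte markers were detected, at a sum of 2289 CPM against 10207 CPM in MdC. All 9 microglial markers were detected at 1112 CPM against 17894 CPM in microglia, and 4 of 6 granulocyte markers at 321 CPM. Endothelial, T and NK, B, mural and neural lists summed to at most 130 CPM. The part of such cells in the levels that follow was not tested.

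**Figure D1:**
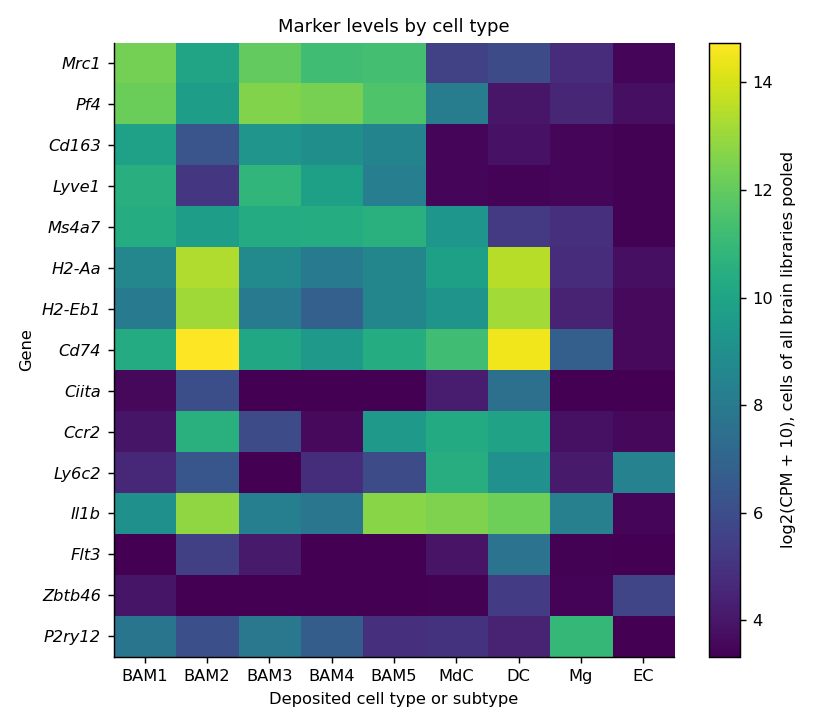
Levels of marker genes (rows) in the 5 BAM subtypes, monocyte-derived cells (MdC), dendritic cells (DC), microglia (Mg) and endothelial cells (EC), as log2(CPM + 10) of counts pooled over all brain libraries. BAM2 has Mrc1 at 1002 CPM, below the other BAM subtypes, and Cd74 at 27346 CPM, near the 23005 CPM of DC.

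Across 2801 genes, the pooled BAM2 profile correlated with that of MdC at a Pearson r of 0.815, BAM5 at 0.783, BAM1 at 0.774, DC at 0.753, BAM4 at 0.725, BAM3 at 0.713 and microglia at 0.630, on log2(CPM + 10). Genes are not independent replicates and the pooled depths differ, so this order is a description.

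Levels in BAM2 were then compared with those in the other BAM subtypes pooled, within the 12 libraries that held at least 10 cells of both. The subtypes were defined from these genes, so no test is given. Of 1950 genes at 100 CPM or more in either, 6.87% were at least 2-fold higher in BAM2 and 11.4% at least 2-fold lower, with a median log2 ratio of -0.11.

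Class II presentation had the highest median ratio of the gene lists. All 6 class II genes that reached 100 CPM were at least 2-fold higher in BAM2, at a median log2 ratio of 3.88. H2-Aa averaged 10670 ± 3202 CPM in BAM2 (SD, n = 12) and 644 ± 860 CPM in the other BAM. In the young sham libraries 1 to 4 it was at 13646, 11022, 7924 and 8532 CPM in BAM2. The other BAM of sham libraries 1 to 3 held 357, 134 and 322 CPM. The 2 populations did not overlap in any library, and the lowest BAM2 level, 3777 CPM, came from the aged day 14 library.

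Its partner chain H2-Ab1 stood at 14191 ± 5122 against 771 ± 836 CPM, an 18.4-fold ratio, and H2-Eb1 at 8576 ± 3373 against 442 ± 529 CPM, a 19.4-fold ratio. Cd74, the invariant chain that escorts class II to the endosome, stood at 26096 ± 9793 against 1999 ± 2501 CPM. H2-DMb1 was 9.99-fold higher at 895 ± 271 CPM, with the limit that its reads cannot be surely told from those of its close copy H2-DMb2. Ciita, the class II coactivator, averaged 75.7 ± 71.4 CPM in BAM2, against 1.28 CPM in the other BAM, where 1 count was summed over all libraries. Each of H2-Ab1, H2-Eb1, Cd74 and H2-DMb1 was higher in 12 of 12 libraries, and Ciita in 11.

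Among the remaining genes with the highest ratios, Ccr2, the receptor that brings monocytes to inflamed tissue, was at 1304 ± 754 CPM in BAM2 and 72.6 ± 125 CPM in the other BAM, higher in 12 of 12 libraries. Tnip3, an inhibitor of NF-kB signalling, had the highest ratio of the named genes, 28.9-fold, at 126 ± 122 against 4.36 ± 10.99 CPM, higher in 10 libraries. Sirpb1c, a signal-regulatory receptor, was 19.3-fold higher. Runx3, a Runt-family transcription factor, was 12.8-fold higher and Cytip, a cytohesin-binding protein, 12.5-fold. The anti-apoptotic gene Bcl2a1a was 13.4-fold higher, although it shares reads with near-identical copies, and Sowahc was 10.2-fold higher. Ccr2, Runx3 and Cytip are also found outside BAM: the highest pooled Ccr2 level there was 1245 CPM in MdC, that of Cytip 692 CPM in DC and that of Runx3 235 CPM in NK cells. Pooled over libraries, Ccr2 was at 1497 CPM in BAM2, 700 CPM in BAM5, and at most 53.3 CPM in BAM1, BAM3 and BAM4.

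Inflammatory mediators were partly higher. Il1b, which encodes interleukin-1 beta, averaged 7399 ± 2819 CPM in BAM2 and 1183 ± 1249 CPM in the other BAM, with BAM2 higher in 12 of 12 libraries. BAM5 was near BAM2 for this gene when pooled, at 6665 against 7439 CPM. Of 14 chemokine genes, 3 were at least 2-fold higher in BAM2. These were Ccl4 at 2969 ± 896 CPM, Cxcl10 at 657 ± 469 CPM and Cxcl16 at 588 ± 287 CPM, each higher in 12 of 12 libraries. Another 5 chemokine genes were at least 2-fold lower: Ccl7, Ccl8, Ccl12, Ccl24 and Pf4. Ccl24, an eosinophil chemokine, was at 12.5 ± 31.8 CPM in BAM2 and 409 ± 278 CPM in the other BAM, and Ccl8 at 73.7 ± 148 against 1169 ± 969 CPM.

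Genes of border macrophage identity were low. Of the 17 measured at 100 CPM, 15 were at least 2-fold lower in BAM2 and none higher, at a median log2 ratio of -2.79. Lyve1 averaged 31.4 ± 73.3 CPM in BAM2 against 1023 ± 733 CPM in the other BAM, a 32.6-fold ratio. Lyve1 in BAM2 was under 15 CPM in 10 of the 12 libraries, with 113 CPM in day 14 replicate 3 and 241 CPM in the aged day 14 library. Cd163, the haemoglobin scavenger receptor, was at 113 ± 180 against 828 ± 512 CPM, and Cbr2, a carbonyl reductase, at 107 ± 127 against 1550 ± 782 CPM. Cd209f, a C-type lectin gene, had less than 1 count in BAM2 and 240 CPM in the other BAM, where 213 counts were summed and 8 of 12 libraries were higher. Against the floor of 3 counts over all BAM2 libraries it was at least 26.9-fold lower.

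The 2 exceptions in the identity list were Ms4a7, at 895 ± 578 against 1577 ± 661 CPM, and Mgl2, at 415 ± 250 against 299 ± 184 CPM. Ms4a7 in particular separates macrophages outside the brain tissue from microglia, which pooled at 19.4 CPM. Several receptors shared this low level. Of 11 scavenger and phagocytic receptors 9 were at least 2-fold lower, among them Stab1 at 134 ± 82.2 against 999 ± 574 CPM and Mertk at 59.1 ± 63.5 against 228 ± 169 CPM. Axl, a TAM receptor like Mertk, was the 1 member that was higher, at 125 ± 67.7 against 30.0 ± 41.8 CPM in 12 of 12 libraries.

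**Figure D2:**
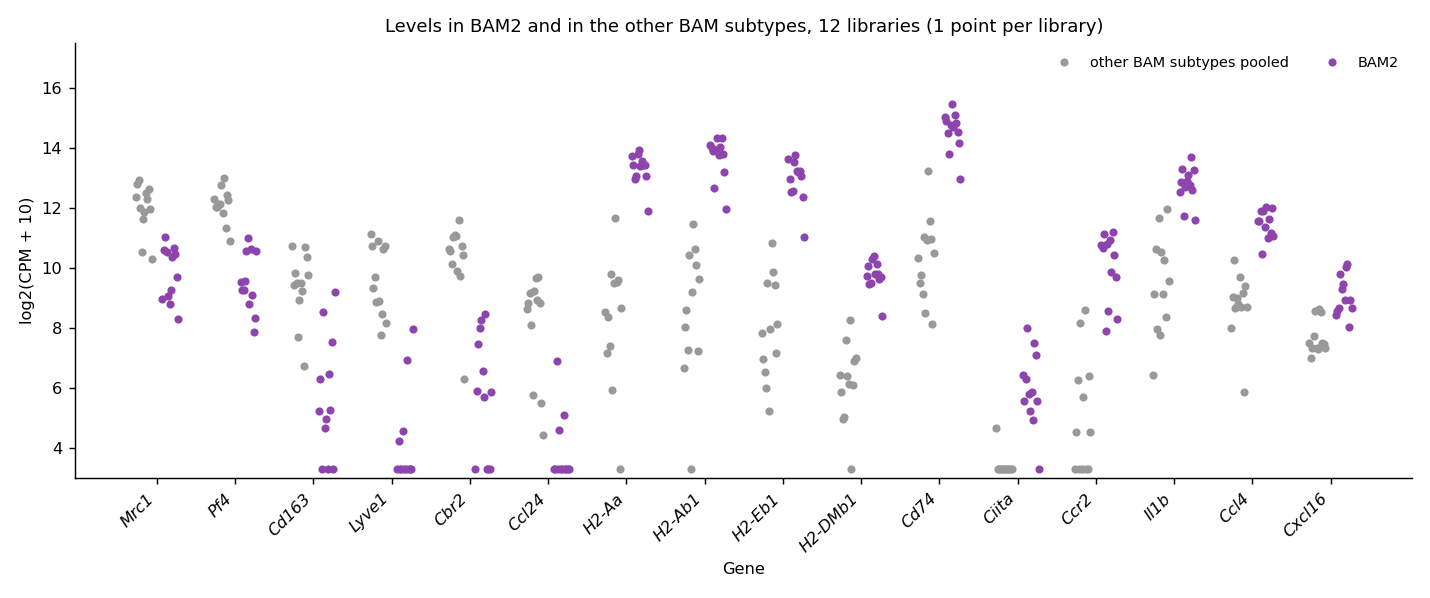
Levels of 16 genes as log2(CPM + 10) in BAM2 (purple) and in the other BAM subtypes pooled (grey), 1 point per library for the 12 libraries with at least 10 cells of both. Mrc1, Pf4, Cd163, Lyve1, Cbr2 and Ccl24 lie lower in BAM2 and the class II genes, Ccr2, Il1b, Ccl4 and Cxcl16 lie higher.

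The other genes with the lowest ratios held varied roles. Igf1, insulin-like growth factor 1, was 15.6-fold lower in BAM2 at 23.8 ± 41.5 against 372 ± 213 CPM. Gas6, the ligand of Axl and Mertk, was 14.0-fold lower at 34.8 ± 40.7 against 487 ± 330 CPM. The extracellular glutathione peroxidase Gpx3 was 13.5-fold lower, the adhesion molecule Vcam1 11.6-fold, the Wnt co-receptor Lrp6 9.68-fold and the IGF-binding protein Igfbp4 9.16-fold. Ednrb, the endothelin receptor B gene, and Colec12, a scavenger receptor, were at 4.66 and 6.48 CPM in BAM2 on 1 to 3 summed counts, and at 245 and 184 CPM in the other BAM.

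The alternative activation list was also low, with 6 of 7 genes at least 2-fold lower at a median log2 ratio of -2.63; it shares Mrc1, Clec10a, Msr1 and Ccl24 with the lists above. In the TGF-beta and growth factor list 3 genes reached 100 CPM: Igf1 and Gas6 were lower, and the mean of Tgfbr1, a TGF-beta receptor, was 178 ± 147 against 65.2 ± 39.4 CPM. That ratio did not hold in every group. Tgfbr1 was lower in BAM2 than in the other BAM in sham 1 to 3 and higher in the remaining 9 libraries, with BAM2 means of 20.5 CPM in young sham, 133 CPM at day 2 and 288 CPM at day 14. It did not pass the filter on low counts for the test between groups. Without that filter it was called at day 14 against sham (3.31 ± 0.75, adjusted p = 0.0317, edgeR). That fit also called Spp1 upwards, and Retnla (-5.77, at 0 CPM at day 14) and Ptgds (-5.49) downwards. Averaged over all 12 libraries, none of 8 interferon response genes and none of 13 early response genes differed 2-fold in either direction. The groups differed within this average: at day 2 the mean log2 ratio of BAM2 over the other BAM was 2.16 for Atf3, 2.24 for Dusp1 and 1.28 for Ier2, and at day 14 it was -0.12, 0.06 and -0.34. Of 10 complement and Fc receptor genes only C5ar1 was 2-fold lower, and C1qa, a subunit of complement C1q, was at 2350 ± 1265 against 4690 ± 1872 CPM. Of 13 lipid and disease-associated genes 6 were at least 2-fold lower and none higher, including the lysosomal protease Ctsd at 691 ± 409 against 2036 ± 952 CPM. In the iron list 3 of 6 were lower. All 4 monocyte markers at 100 CPM (Ly6c2, Ccr2, Plac8 and S100a4) were at least 2-fold higher in BAM2, at a median log2 ratio of 1.94. The granulocyte markers at 100 CPM, S100a8 and S100a9, were also at least 2-fold higher, at a median of 3.23. In young BAM2, S100a8 averaged 73.8 CPM in sham, 25.8 CPM at day 2 and 0.498 CPM at day 14. The part of such cells in these levels was not tested. All 24 named genes stayed at least 2-fold in their direction when cells were averaged one by one, when 20 cells were required, without the 3 libraries of low ribosomal share and without the aged day 14 library. Without the aged day 14 library the log2 ratio of Tnip3 moved from 4.86 to 6.48, that of Lyve1 from -5.03 to -6.46, that of Igf1 from -3.96 to -4.92 and that of Vcam1 from -3.53 to -4.58. Without the libraries of low ribosomal share that of Ccr2 moved from 4.17 to 5.73, that of H2-Aa from 4.05 to 4.74, that of Ccl8 from -3.99 to -5.77 and that of Lrp6 from -3.28 to -4.03. The ratios of Ednrb and Colec12 also moved by over 1.5 times, on the few counts given above.

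How the BAM2 share of BAM moved with stroke was the first question across groups. BAM2 made up 23.4, 29.1, 35.6 and 82.7% of BAM in the 4 young sham libraries, on 25, 82, 52 and 43 BAM2 cells. At day 2 the shares were 20.4, 16.1, 28.4 and 19.8%, on 10, 5, 27 and 36 cells. At day 14 they were 53.2, 35.0, 44.2 and 56.9%, on 41, 7, 23 and 37 cells. Shares at day 14 all lay above those at day 2. Sham shares, from 23.4 to 82.7%, covered the day 14 range. Their upper end was sham 4, in which only 9 other BAM cells were annotated. The sham share of 35.6% also lay above the lowest day 14 share of 35.0%. Day 2 reached the sham range only with its share of 28.4%, and 20.4, 16.1 and 19.8% lay below all sham shares.

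The means were 42.7 ± 27.1% in sham, 21.2 ± 5.18% at day 2 and 47.4 ± 9.81% at day 14 (SD, n = 4 each). Day 14 exceeded day 2 by 26.2 percentage points (two-sided exact permutation test, p = 0.0286, the smallest that 4 against 4 libraries allow), and this missed the threshold after adjustment over the subtypes and pairs of groups (adjusted p = 0.143). With libraries of the same replicate number as pairs, exact sign flips gave p = 0.125, the smallest that 4 pairs allow. Day 2 lay 21.5 points below sham (exact p = 0.0571, adjusted p = 0.171), and without sham 4 the difference was -8.17 points. Day 14 lay 4.66 points above sham (exact p = 0.829). Without sham 4 the sham mean was 29.4%, and without sham 1 the day 14 minus sham difference was -1.78 points.

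The makeup of the remainder moved alongside. BAM4 made up 1.47% of BAM in sham, 29.4% at day 2 and 3.17% at day 14. With only BAM1, BAM2 and BAM3 as the total, the day 2 minus sham difference in BAM2 was -4.94 points and the day 14 minus day 2 difference 12.7 points. In day 2 replicate 3, for which BAM4 and BAM5 made up 59 of 95 BAM cells, the BAM2 share was 75.0% on that total. Since subtypes were called from expression, a shift of expression and a shift of cells between subtypes cannot be told apart.

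A share of all brain cells profiled also depends on how the sorted fractions (CD45high cells, microglia and endothelial cells) were mixed. On this total BAM2 made up 1.32 ± 0.490% in sham, 0.504 ± 0.336% at day 2 and 0.806 ± 0.457% at day 14. These ranges overlapped, and edgeR's quasi-likelihood test found a log2 difference of -1.38 ± 0.72 (SE) for day 2 against sham (adjusted p = 0.137), -0.71 ± 0.71 for day 14 against sham (adjusted p = 0.450) and 0.67 ± 0.72 for day 14 against day 2 (adjusted p = 0.553). With only cells of at least 800 counts the day 2 difference was -2.47 (adjusted p = 0.0366, edgeR).

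Among leukocytes other than microglia the share fell at both times. It was 5.27, 10.9, 8.36 and 11.1% in sham, 0.391, 0.231, 0.941 and 1.81% at day 2, and 2.98, 0.515, 1.38 and 1.72% at day 14. No stroke library reached the lowest sham library. By edgeR the log2 difference from sham was -3.40 ± 0.70 at day 2 (adjusted p = 0.000588) and -2.43 ± 0.67 at day 14 (adjusted p = 0.00582), and day 14 against day 2 was 0.97 ± 0.66 (adjusted p = 0.201). The denominator was higher in the same stroke libraries, with 386 to 749 such cells in sham, 1987 to 2868 at day 2 and 1359 to 2157 at day 14. Its part in the lower share was not tested.

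In the aged libraries BAM2 made up 46.2% (male) and 32.3% (female) of BAM in sham on 6 and 31 cells. The day 2 stroke libraries gave 47.6% (male), 16.4% and 16.7% (females) on 20, 9 and 1 cells, and the day 14 library gave 18.1% on 15 cells, with a 95% exact binomial interval of 10.48 to 28.05% that covers counting error only. Aged stroke at day 2 and aged sham overlapped (two-sided exact permutation test, p = 0.6, on 3 against 2 libraries), and sex and surgery were not balanced. So few libraries cannot give a small p in this test.

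**Figure D3:**
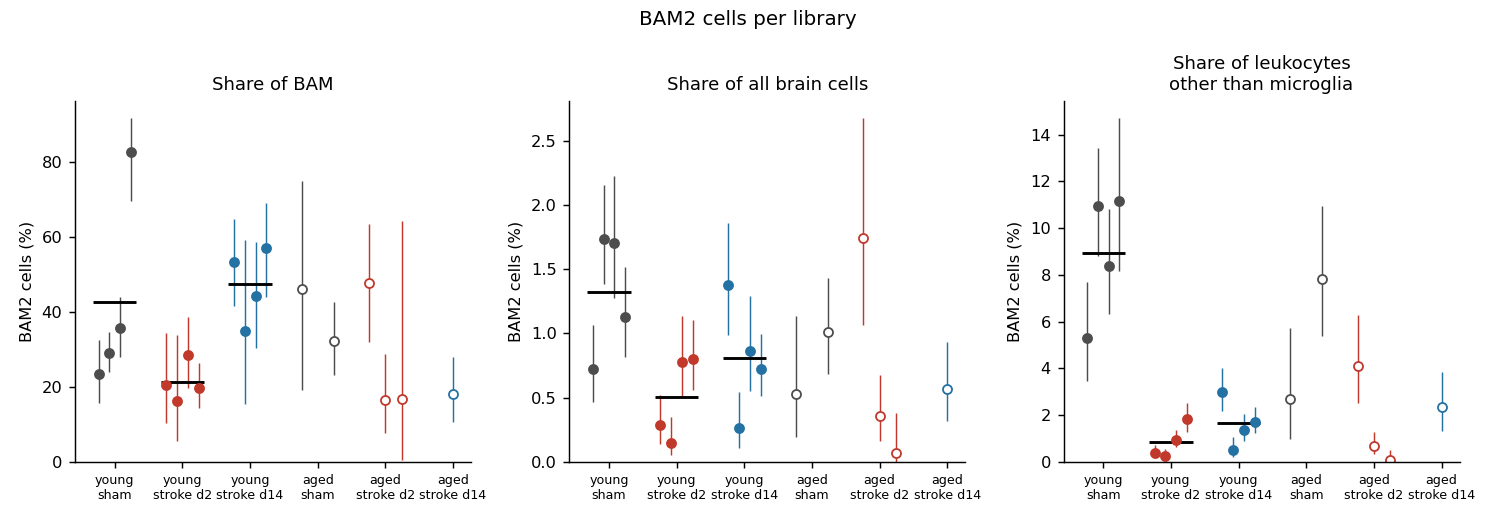
BAM2 cells as a percentage of BAM, of all brain cells and of leukocytes other than microglia, 1 point per library with its 95% exact binomial interval, filled for young and open for aged libraries, with bars at the means of young groups. Young sham lies above both young stroke groups in the third panel, and the sham library at 82.7% stands alone in the first.

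Which genes changed in BAM2 after stroke was asked with counts summed per library. The 10 young libraries with at least 10 BAM2 cells entered: all 4 sham libraries and replicates 1, 3 and 4 at day 2 and at day 14, with 7690 to 59989 summed counts each. In these, 477 genes passed the filter on low counts.

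One gene passed at day 14 against sham, 0.21% of those tested (edgeR, adjusted p under 0.05). Spp1 encodes osteopontin, a secreted phosphoprotein made by macrophages in injured tissue. It was at 38.7, 19.6, 35.1 and 37.0 CPM in BAM2 of sham, 0, 143 and 556 CPM at day 2, and 952, 2287 and 530 CPM at day 14. All day 14 libraries lay above all sham libraries. The sham levels came from sums of 25218, 50667, 27124 and 16965 counts, so they lay near the floor. The size of the difference is therefore uncertain. Spp1 rose by a log2 difference of 5.09 ± 0.78 (SE; adjusted p = 0.0152). Its estimate at day 2 was 2.96 ± 0.97 (adjusted p = 0.257).

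The Spp1 call rested on few libraries. The adjusted p was 0.138 without sham 2, 0.0873 without sham 3, 0.0514 without sham 4 and 0.0609 without day 14 replicate 3, with log2 differences between 4.41 and 5.25. It was 0.399 with only cells of at least 800 counts, at a log2 difference of 5.97, 0.438 with the replicate number as a block, at 4.75, and 0.00286 without the 3 libraries of low ribosomal share. Spp1 falls outside the rule for naming genes, since other cell types held far more of it, and is named as a list member after its values were seen. In the same libraries microglia held 2900 to 17328 CPM at day 14 and at most 4.66 CPM in sham, and MdC 10433 to 23932 CPM at day 14. At day 2, where BAM2 held 0 to 556 CPM, microglia held 8392 to 17133 CPM and MdC 4198 to 6065 CPM. The part of RNA from such cells in the BAM2 level was not tested.

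No gene passed at day 2 against sham (0% called, 73 of 477 at an unadjusted p under 0.05, 5 called by DESeq2), nor at day 14 against day 2 (0%, 18 at an unadjusted p under 0.05, 0 by DESeq2). The values nearest the threshold at day 2 belonged to Ccl6, a macrophage chemokine. Ccl6 in BAM2 was at 430, 520, 248 and 351 CPM in sham, 1111, 1263 and 1342 CPM at day 2, and 318, 490 and 335 CPM at day 14. The day 2 libraries lay above all others, at a log2 difference of 1.67 ± 0.30 from sham (adjusted p = 0.0687). Leaving out the libraries of low ribosomal share gave 1.77 ± 0.40 (adjusted p = 0.0317).

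DESeq2 called Ccl6, B2m, Grn, Ctsb and Lgmn at day 2 (adjusted p = 0.0191 for Ccl6, Grn and Ctsb, 0.0182 for B2m and 0.0392 for Lgmn), of which edgeR called none. B2m, the light chain of MHC class I, was at 3685 to 5263 CPM in sham and 6753 to 11138 CPM at day 2 (edgeR, 1.10 ± 0.24, adjusted p = 0.127). The values of Grn, Ctsb and Ctsd are given as well, a choice made after seeing them. Grn, the progranulin gene, was at 52.6 to 346 CPM in sham and 805 to 949 CPM at day 2, a log2 difference of 2.06 ± 0.52 (adjusted p = 0.176). Ctsb, a lysosomal protease gene, was at 666 to 1470 CPM in sham and 1722 to 4462 CPM at day 2 (1.42 ± 0.38, adjusted p = 0.243). Ctsd was at 84.1 to 516 CPM in sham, 554 to 1211 CPM at day 2 (1.84 ± 0.58, adjusted p = 0.257) and 527 to 1617 CPM at day 14 (2.09 ± 0.55, adjusted p = 0.631). For Grn, Ctsb and Ctsd the day 2 and sham libraries did not overlap, and none passed with edgeR. Other cell types of the same libraries moved alongside. In MdC, Ctsb was at 803 to 1522 CPM in sham and 5408 to 6935 CPM at day 2, Ctsd at 50.6 to 483 and 2430 to 3558 CPM, and Grn at 109 to 433 and 932 to 1039 CPM. In microglia Ctsb was at 2200 to 2487 CPM in sham and 6844 to 9215 CPM at day 2, while Ctsd (3467 to 6489 and 5807 to 9654 CPM) and Grn (667 to 1194 and 1048 to 1658 CPM) overlapped. The part of RNA from such cells in these BAM2 levels was not tested. Once a term for low ribosomal share was added, a choice made after seeing the data, Ctsd passed in edgeR at day 2 (adjusted p = 0.0387) and at day 14 (adjusted p = 0.00724), and Grn and Ctsb at day 2. With those libraries left out instead, Ctsb and Ctsd were not called at day 2, where Ccl6, Ccr2, Grn, Rpl5 and Trf passed, and Ctsd passed at day 14 (adjusted p = 0.0404, edgeR).

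Class II levels in BAM2 showed no called change. None of the 6 class II genes tested passed in any of the 3 comparisons. Subtypes were called from expression and class II sets BAM2 apart, so its level within BAM2 is partly set by the label. A change in cells that thereby left or entered BAM2 could not be seen here. H2-Aa was at 8481, 14256 and 15547 CPM at day 2 and 10814, 12204 and 10956 CPM at day 14, overlapping the sham values given above, with log2 differences of 0.32 ± 0.27 and 0.17 ± 0.27 (adjusted p = 0.601 and 0.905). Cd74 averaged 27948 ± 4634 CPM in sham, 28829 ± 15245 CPM at day 2 and 30194 ± 4642 CPM at day 14. Ccr2 averaged 2361 ± 1045, 794 ± 859 and 1734 ± 739 CPM (day 2 against sham, -1.47 ± 0.62, adjusted p = 0.307). The 3 day 2 libraries of Ccr2 were far apart, at 231, 1782 and 368 CPM, and without the libraries of low ribosomal share its difference was -2.76 ± 0.51 (adjusted p = 0.0124).

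By list, 0 of 7 border identity, 0 of 8 complement and Fc, 0 of 12 chemokine, 0 of 4 interferon and 0 of 10 early response genes passed in any comparison in BAM2. Of 7 lipid and disease-associated genes tested, Spp1 alone passed, and all 7 estimates lay above 0 against sham at both times, with medians of 1.29 at day 2 and 1.28 at day 14, beside -0.01 and 0.05 over all genes tested. Both comparisons share the sham libraries. The microglial marker sum in BAM2 moved alongside, at 61.6 to 1137 CPM in sham, 343 to 2057 CPM at day 2 and 255 to 1705 CPM at day 14. Its part was not tested.

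**Figure D4:**
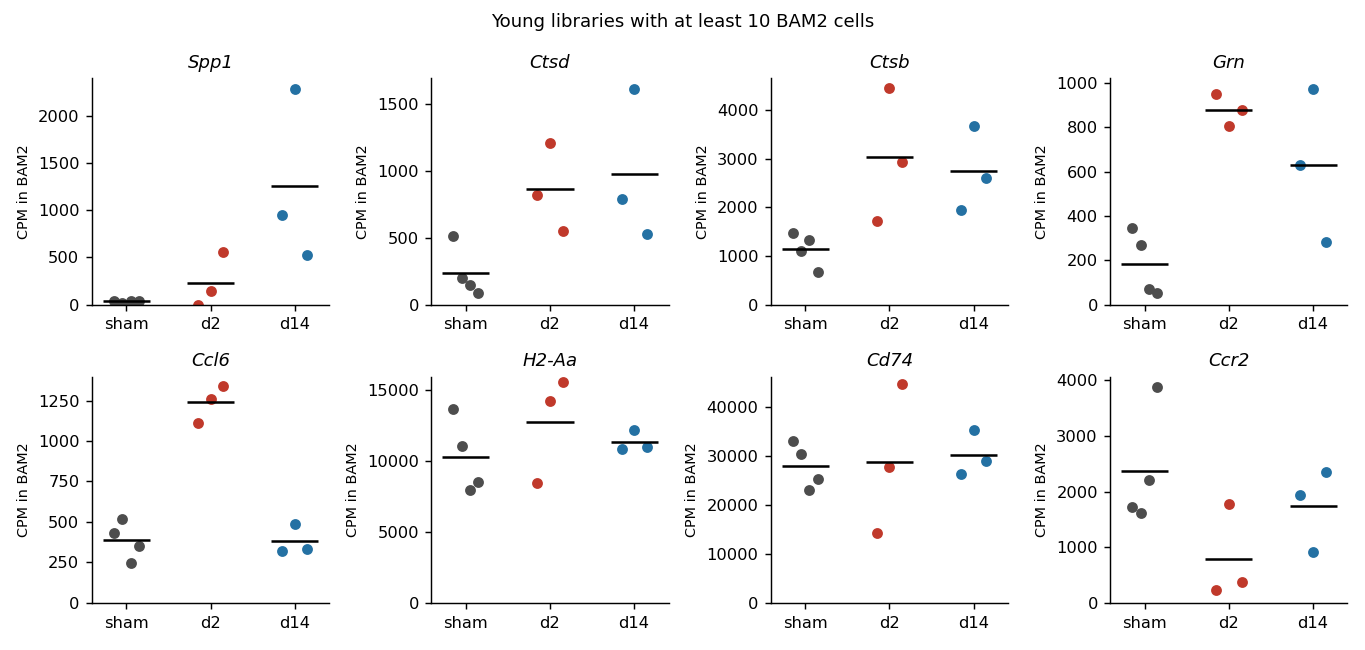
CPM of 8 genes in BAM2 summed per young library with at least 10 BAM2 cells, by group (sham, n = 4, stroke day 2 and day 14, n = 3 each), with bars at the mean. Spp1 is at most 38.7 CPM in sham and at least 530 CPM at day 14, while H2-Aa and Cd74 overlap between groups.

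Whether genes moved between the groups differently in BAM2 and in the other BAM was tested as a difference of effects within libraries. It covered 920 genes in 9 young libraries (3 per group). At day 14 against day 2 the difference passed for 26 genes (2.83%), 7 higher in BAM2 (0.761%) and 19 lower (2.07%). Without day 14 replicate 1 only Btg2, Calr, Cd83 and Spp1 were left of the 26, and without sham 2 there were 16. With the replicate number by subtype as a further term 24 passed, 18 of them among the 26. In day 2 and day 14 libraries alone, paired by that number, 9 of 646 genes passed, and 8 of them were among the 26: Atf3, Btg2, Calr, Cd83, Dusp1, Jun, Ppp1r15a and Spp1. Of 13 early response genes 10 passed, all lower: Fos, Fosb, Jun, Junb, Egr1, Ier2, Atf3, Nr4a1, Klf6 and Dusp1. Fosb, Junb, Nr4a1 and Klf6 were no longer called with the replicate term, and in the paired libraries alone Atf3, Dusp1 and Jun were the 3 still called. The median difference in that list was -1.82, beside 0.08 over all genes. These genes encode transcription factors and phosphatases that cells switch on within minutes of a stimulus.

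Taken alone, none of 10 early response genes tested passed at day 14 against day 2 in BAM2, and in the other BAM 1 of 12 passed while all 12 estimates lay above 0. Atf3, a stress-induced transcription factor, was at 1444, 998 and 2251 CPM in BAM2 at day 2 and at 1670, 1609 and 2215 CPM at day 14. In the other BAM it was at 139, 466 and 515 CPM at day 2 and 3310, 1687 and 1356 CPM at day 14. BAM2 overlapped between the times, whereas the other BAM did not, and the effects differed by -2.38 ± 0.46 (adjusted p = 0.00287). Dusp1, a MAP kinase phosphatase, was at 627, 1340 and 2924 CPM in BAM2 at day 2, beside 69.4, 438 and 666 CPM in the other BAM. The Dusp1 difference of effects was -2.34 ± 0.40 (adjusted p = 0.000603).

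Btg2 and Cd83 had the lowest adjusted p among the genes that differed downwards. For Btg2, an antiproliferative gene, the level was at 1590, 1914 and 2739 CPM in BAM2 at day 2 and 1071, 1166 and 1074 CPM at day 14. In the other BAM it was at 196, 732 and 992 CPM at day 2 and 2595, 1454 and 1695 CPM at day 14. The order of the 2 times was opposite in the 2 populations, and the effects differed by -2.55 ± 0.38 (adjusted p = 0.000113). Cd83, an activation marker of antigen-presenting cells, differed by -2.65 ± 0.40 (adjusted p = 0.000113). It was at 965, 720 and 2765 CPM in BAM2 at day 2 and 2510, 1302 and 2434 CPM at day 14. In the other BAM it was at 59.3, 166 and 425 CPM at day 2 and 2988, 872 and 1801 CPM at day 14, so the mean was higher at day 14 in both, by more in the other BAM.

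Others in this direction were the transcription factor Jund (-2.48), the kinase gene Stk17b (-2.09), the RNA-binding factor Zfp36l1 (-2.02) and the stress phosphatase subunit Ppp1r15a (-1.92), together with Fosb (-2.43) and Ier2 (-2.26). Actinomycin D was present in the dissociation of all groups.

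In the other direction, Spp1 differed by 3.72 ± 0.51 (adjusted p = 5.05e-05). In the other BAM it was at 1370, 2115 and 2351 CPM at day 2 and 629, 770 and 438 CPM at day 14, the reverse of the order in BAM2. BAM1 alone did not show that reversal: its Spp1 levels overlapped, at 336 and 1181 CPM at day 2 and 681, 867 and 216 CPM at day 14, and the difference of effects against BAM1 was 2.07 ± 0.52 (adjusted p = 0.0259). In the paired libraries alone it was 4.46 ± 0.63 (adjusted p = 0.00140). Calr, the calreticulin gene, differed by 1.83 ± 0.37 (adjusted p = 0.00412), with 1236, 744 and 470 CPM in BAM2 at day 2 and 890, 1525 and 1791 CPM at day 14. The other BAM held 2189, 1483 and 1412 CPM of Calr at day 2 and 679, 677 and 1169 CPM at day 14. S100a10, an S100-family partner of annexin A2 (3.21), the galectin gene Lgals1 (1.88) and the cystatin gene Cstb (1.80) also passed. So did Atp5e (1.98) and Cox8a (1.67), nuclear genes that encode mitochondrial proteins.

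**Figure D5:**
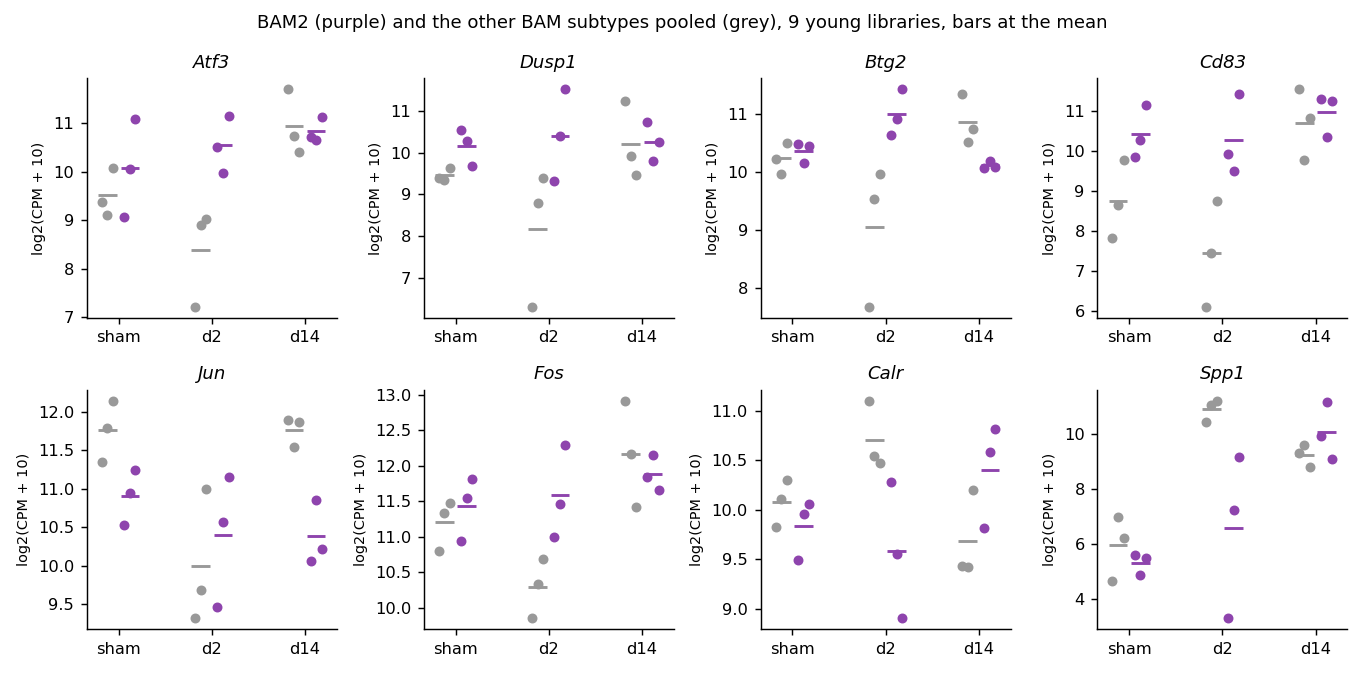
Levels of 8 genes as log2(CPM + 10) in BAM2 (purple) and the other BAM pooled (grey) of the same 9 young libraries, 3 per group, with bars at the mean of the log values; the vertical axes do not start at 0. The means of Atf3, Dusp1, Btg2 and Cd83 in the other BAM are lowest at day 2, and Spp1 is highest there at day 2 but highest in BAM2 at day 14.

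At day 2 against sham the difference passed for 6 genes (0.652%), 2 higher in BAM2 (0.217%) and 4 lower (0.435%). Rnase4, a secreted ribonuclease gene, differed by 1.81 ± 0.41 (adjusted p = 0.0238): BAM2 held 200, 413 and 242 CPM in sham 1 to 3 and 879, 950 and 532 CPM at day 2, while the other BAM held 1598 to 2149 and 1277 to 1634 CPM. Btg2 differed by 1.67 ± 0.36 and the interferon-inducible Ifi27l2a by -1.85 ± 0.42 (adjusted p = 0.0238 and 0.0244). S100a4, S100a6 and S100a10 differed downwards. S100a4 was at 0 CPM in the other BAM of all 3 sham libraries, so the fitted -5.81 is no measure of size, and S100a10 differed by -3.62 ± 0.81. S100a6 is outside the naming rule and is given because the count is small. DESeq2 called 0 of these 920 genes (64 at an unadjusted p under 0.05). With the replicate number by subtype as a term 4 genes passed, and of the 6 Rnase4 and S100a6 were still called. Without the libraries of low ribosomal share Ifi27l2a was the 1 gene called. Without sham 1 or sham 2 the count was 0, without day 2 replicate 1 it was 3, without day 2 replicate 3 it was 1, and without day 2 replicate 4 it was 26.

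At day 14 against sham no gene passed (0%, 92 at an unadjusted p under 0.05, DESeq2 0 with 30). The count was 5 without day 2 replicate 3, 11 without day 2 replicate 4 and 8 with the replicate number by subtype as a term. All 6 class II estimates of the difference of effects lay below 0, at a median of -2.05 beside 0.05 over all genes. H2-Aa was at -2.21 ± 0.73 (edgeR, adjusted p = 0.280). H2-Aa in the other BAM was at 357, 134 and 322 CPM in sham and 722, 3202 and 738 CPM at day 14. Since subtypes were called from expression, the labels limit how far class II could move within BAM2 or the other BAM.

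The other BAM changed in makeup between the groups, since BAM4 and BAM5 were found mainly at day 2. BAM1 alone was therefore used as the comparator, a choice made after seeing the data, in 8 libraries with 2 at day 2. At day 14 against day 2, 11 genes then passed, and 6 of them were among the 26: Atf3, Btg2, Cd83, Dusp1, Ier2 and Spp1. The other 5 were Ccl3, Cd74, H2-Aa, H2-Ab1 and H2-Eb1. At day 2 against sham 0 passed (51 of 891 at an unadjusted p under 0.05). At day 14 against sham 4 passed, H2-Aa (-3.82), H2-Ab1 (-3.30), H2-Eb1 (-3.83) and Cd74 (-2.45). Each effect was lower in BAM2, although the level was higher there. Subtypes were called from expression and these genes set BAM2 apart. The labels thus limit how far class II could move within BAM2 or BAM1, and these calls are no independent test. For H2-Aa, H2-Ab1 and H2-Eb1 the BAM1 baseline rested on few counts, so the fitted values are no measure of size. H2-Eb1 in BAM1 was at 96.2, 51.0 and 25.5 CPM in sham 1 to 3, on 51489, 119274 and 36495 summed counts. It was at 0 CPM in day 2 replicate 1, and H2-Ab1 at 0.013 CPM in day 2 replicate 4. In BAM1, H2-Aa was at 57.7, 90.2 and 225 CPM in sham 1 to 3, 56.3 and 90.1 CPM at day 2, and 781, 4615 and 876 CPM at day 14, against at least 7924 CPM in BAM2 of each young library tested. The day 14 BAM1 values lay above all sham and day 2 values.

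For day 14 against day 2, DESeq2 called 18 genes, 16 of them shared with the 26. Without the 3 libraries of low ribosomal share 31 passed and 21 were shared.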

How the data were processed

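Brain libraries were used and blood libraries were not. The authors deposited tables of estimated counts per gene and cell, many of them not whole. Per the submitters' processing notes, Seurat and build mm10 were used; the aligner, the counting and the step that made values fractional are not given in the sources used here. Cell types and the percent of mitochondrial counts per cell are the authors' own, per the file headers, as is the deposited count of genes per cell. Members and gene lists were chosen with earlier results of these data known.

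Counts were summed per library and subtype, rounded, and tested with edgeR 4.0.16 (quasi-likelihood, TMM, filterByExpr, Benjamini-Hochberg, called at adjusted p under 0.05) or DESeq2 1.42.0. The minimum was 10 cells per library. CPM are counts per 1000000 summed counts. The difference of effects was fitted with library as a block. On simulated data, 83.96% of 187 genes changed 4-fold, among 437 tested, were called for day 2 against sham in BAM2. All genes had 1 shared spread there and many were changed, whereas the real fit called 0 of 477. Grn, with an estimate near 4-fold, was not called in the real fit, so 83.96% is no measure of its power. For the day 2 difference of effects 7.37% of 190 among 842 were called, so absent calls there say little. That simulation gave BAM2 and the other BAM the spread of the BAM2 fit and a shared mean profile. Its share of calls holds for that setting and may differ from that of the real data. Shares were compared by exact permutation. No cell was removed as a doublet: Scrublet marked at most 0.225% of a library and no BAM cell, so it was not relied on, and doublets may remain. The labels do not say that replicate numbers pair libraries. Deviations from the group means correlated in all 3 same-numbered pairs of day 2 and day 14 libraries (r = 0.43, 0.68 and 0.28), so day 14 against day 2 was also tested with these libraries alone as pairs, a choice made after seeing the data. Pairs with sham ran from -0.35 to 0.45, and the tests otherwise carry no pairing. The aged groups had too few libraries of 10 BAM2 cells for a test of expression.

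Genes named between BAM2 and the other BAM were up to 12 with the highest and 12 with the lowest ratio, at 100 CPM or more and in the same direction in 80% of libraries. For tested comparisons they were up to 10 called genes each way without overlap between libraries. Predicted, mitochondrial, ribosomal protein, haemoglobin and receptor segment genes, and those at over 10 times the BAM2 level in another type of at least 500 cells, were left out.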

Additional observations from a re-analysis of the deposited data

Results flagged for a closer look

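In 22 cases the effect of a comparison in BAM2 differed from that in the other BAM by a test of the difference itself (edgeR, adjusted p under 0.05). Day 14 against day 2 sets stroke libraries against stroke libraries, so it measures time after stroke and not stroke against sham. For day 2 against sham the log2 differences were 1.81 for Rnase4, 1.67 for Btg2, -5.81 for S100a4 (fitted against libraries at 0), -3.62 for S100a10 and -1.85 for Ifi27l2a. For day 14 against day 2 they were 3.72 for Spp1, 3.21 for S100a10, 1.98 for Atp5e, 1.88 for Lgals1, 1.83 for Calr, 1.80 for Cstb and 1.67 for Cox8a. The lower values were -2.65 for Cd83, -2.55 for Btg2, -2.48 for Jund, -2.43 for Fosb, -2.38 for Atf3, -2.34 for Dusp1, -2.26 for Ier2, -2.09 for Stk17b, -2.02 for Zfp36l1 and -1.92 for Ppp1r15a. Of the day 14 against day 2 genes, Spp1, Cd83, Btg2, Atf3, Dusp1 and Ier2 also passed with BAM1 alone as the comparator (Spp1 at 2.07), Spp1, Calr, Cd83, Btg2, Atf3, Dusp1 and Ppp1r15a in day 2 and day 14 libraries alone as pairs, and without day 14 replicate 1 Spp1, Cd83, Btg2 and Calr were the 4 still called. None of the day 2 against sham genes passed with BAM1 alone or with DESeq2. None of the 28 groups of 4 young libraries tested with Dixon's criterion held a single library far from the others by that criterion, the sham share of 82.7% included.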

How the results depend on the processing

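All 24 genes named between BAM2 and the other BAM stayed at least 2-fold in their direction under the 4 alternatives run. Called genes in BAM2 at day 2 against sham numbered 0, and 5 by DESeq2, 1 without the filter, 6 with a term for low ribosomal share and 5 without those libraries. At day 14 against sham there was 1, and 4 without the filter, 2 with that term, 2 without those libraries and 0 with only cells of at least 800 counts. At day 14 against day 2 there were 0, and 1 with the term and 1 without cells of high counts. The differences of effects called 6 genes at day 2 (DESeq2 0, BAM1 alone 0, low ribosomal share left out 1), 0 at day 14 (BAM1 alone 4) and 26 at day 14 against day 2 (no filter 11, BAM1 alone 11). In each of these the cause was not tested, but the unfiltered fits adjusted over 11815 and 14417 genes.

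Leaving out each library in turn gave 0 to 0, 0 to 1 and 0 to 0 called genes in BAM2, and 0 to 26, 0 to 11 and 4 to 26 for the differences of effects, in the same order of comparisons. The BAM2 share of BAM ranged from -27.9 to -8.17 points (day 2 against sham), -1.78 to 17.997 (day 14 against sham) and 23.0 to 30.3 (day 14 against day 2). The log2 abundance ranged from -1.70 to -1.09, -1.09 to -0.43 and 0.29 to 0.99. Without the libraries of low ribosomal share, day 14 minus sham in the share of BAM was -0.739 points. Abundance against sham passed only on other totals: -3.40 (day 2) and -2.43 (day 14) among leukocytes other than microglia, and -2.47 (day 2) in cells of at least 800 counts.

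In BAM2 expression the replicate block lost Spp1 at day 14 against sham (log2 difference 4.75, adjusted p = 0.438, 0 called genes) and left 0 called genes in the other 2 comparisons. As a term by subtype, added after seeing the data, it called 4, 8 and 24 genes for the differences of effects, with 2 of the 6 and 18 of the 26 shared. In day 2 and day 14 libraries alone, paired by replicate number, day 14 against day 2 gave 9 genes for the difference of effects (646 tested, 8 shared), 0 in BAM2 expression, a log2 abundance of 0.73 and, for the share of BAM, an exact sign-flip p of 0.125. The block changed no call in the abundance and the share of BAM. It gave log2 abundances of -1.63, -0.86 and 0.77 and log2 shares of BAM of -0.89, 0.27 and 1.16. Leaving out doublets was not run, since the caller marked no BAM cell. The precision is limited by 10 to 82 cells a library.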
